A study of Mus musculus with 6 samples.

Results

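The genes of the vascular basement membrane examined here are Col4a1 and Col4a2 (type IV collagen chains), Lama4, Lama5, Lamb1, Lamb2 and Lamc1 (laminin chains), Nid1 and Nid2 (nidogens) and Hspg2 (perlecan). They were chosen by symbol, and all 10 are among the 32286 features of the deposited single-cell count matrices. The study captured mouse brain microvessels after loss of Cldn5, the gene of the tight junction protein claudin-5, and profiled them with droplet single-cell RNA sequencing (10x Genomics, version 3.1 chemistry), with 3 Control and 3 Cldn5 iECKO (inducible endothelial knockout) libraries. Control mice were C57Bl6, Cldn5 fl/fl and R26 YFP/YFP, so they carried the floxed alleles and the reporter. Cldn5 iECKO mice had the same alleles and Cdh5-creERT2+, a tamoxifen-dependent Cre driven by the endothelial cadherin promoter. Tamoxifen was given by gavage, 100 µl at 20 mg/ml on 3 consecutive days at an age of about 3 months. Vessel fragments were pulled down from collagenase-digested brain with beads against PECAM1, an endothelial surface protein, and then split into single cells. Pericytes and smooth muscle cells therefore came along attached to endothelium, and their numbers depend on that capture. The labels do not say whether each library is 1 animal, so p-values measure the spread between libraries.

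A basement membrane is a thin sheet of matrix that endothelial cells and pericytes share in brain capillaries, with astrocyte endfeet on its outer side. Type IV collagen is made of trimers, in vessels mainly of Col4a1 and Col4a2 chains, which join into a network. Laminins are trimers of 1 alpha, 1 beta and 1 gamma chain; Lama4 and Lama5 are the endothelial alpha chains, Lamb1 and Lamb2 are alternative beta chains, and Lamc1 is the common gamma chain. Nidogens bind laminin and type IV collagen and link the networks, and perlecan is a large heparan sulfate proteoglycan of the sheet.

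The libraries held 30586 barcodes with 15727366 to 49350802 UMIs (unique molecular identifiers, counted transcript molecules) each, and 27616 passed the filters on cells. Library pairs shared 0 to 16 cell barcodes. Cells were clustered without Cldn5 and without the 10 genes, and clusters were named from marker genes, so each name below stands for cells like that type. Control libraries had 3115 to 4795 endothelial cells, 38 to 77 pericytes and 82 to 111 smooth muscle cells; iECKO libraries had 1880 to 4652, 50 to 77 and 27 to 242. The targeted gene Cldn5 stood at 4562, 4006 and 5371 CPM (UMIs of the gene per 1000000 UMIs of the summed cells) in Control endothelium and was lower in every iECKO library, at 2679, 2191 and 3120 CPM. No library held a yfp UMI, so the reporter could not mark recombined cells. Endothelial clusters that could be given no zone held 12.4%, 55.5% and 14.8% of endothelial cells in Controls 1 to 3 and 19.7%, 36.1% and 14.0% in iECKO 1 to 3; both libraries numbered 2 stood apart, with 49.2% and 29.8% of their endothelial cells in clusters with Ttr among the 10 leading genes, against at most 2.60% in any other library.

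In the GRCm38 assembly (GENCODE M21), Col4a1 (ENSMUSG00000031502, chromosome 8, 11198423 to 11312826, minus strand) and Col4a2 (ENSMUSG00000031503, chromosome 8, 11312805 to 11449287, plus strand) lie head to head, and their annotated starts overlap by 22 bases. That overlap, chr8:11312805-11312826 on the plus strand of GRCm38.p6 (RefSeq), is shown because the transcripts of both chains begin there, with the GC box GGGCGG in capitals:

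Col4a1 and Col4a2 shared start: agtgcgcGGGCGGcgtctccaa

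The other genes lie on chromosomes 10 (Lama4, 38965515 to 39110188), 2 (Lama5, 180176373 to 180225859), 9 (Lamb2, 108479736 to 108490530), 1 (Lamc1, 153218922 to 153332786), 14 (Nid2, 19751265 to 19811787) and 4 (Hspg2, 137468769 to 137570630).

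The promoters of Nid1 (chromosome 13, 13437551 to 13512269, plus strand) and Lamb1 (chromosome 12, 31265234 to 31329644, plus strand) are shown because these genes had among the widest differences between cell types below. Both sequences run 5′ to 3′ up to the base before the annotated start (chr13:13437352-13437550 and chr12:31265043-31265233). Capitals mark GGGCGG and CCAAT on either strand.

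Nid1 upstream: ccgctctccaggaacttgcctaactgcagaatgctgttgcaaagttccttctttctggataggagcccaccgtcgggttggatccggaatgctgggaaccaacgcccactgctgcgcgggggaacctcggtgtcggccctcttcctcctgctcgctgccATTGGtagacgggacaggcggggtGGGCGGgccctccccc

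Lamb1 upstream: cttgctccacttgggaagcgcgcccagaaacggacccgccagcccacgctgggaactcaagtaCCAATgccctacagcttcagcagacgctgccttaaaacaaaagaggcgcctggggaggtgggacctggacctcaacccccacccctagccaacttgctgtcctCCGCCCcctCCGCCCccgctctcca

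Promoter windows of 250 bases before to 50 bases after the start were at hand for 7 of the 10 genes, all but Lama4, Lamc1 and Nid2. The letters GGGCGG, on either strand, were in 6 of these 7 windows and in 35.7% of 32851 windows of all genes. CCAAT was in 4 of 7, against 37.4% of all windows, and TATAAA in 0 of 7, against 13.6%. A match is a description of the letters and not evidence of a bound factor.

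The first comparison asked which cells of the Control vessels carried the transcripts. Venous endothelium carried less type IV collagen transcript than capillary endothelium, and no collagen difference from capillary endothelium passed edgeR's test in pericytes or smooth muscle. Levels are CPM of the summed UMIs of a cell class, as mean ± SD over the 3 Controls. For the levels of single genes from here on, the totals were scaled by edgeR's TMM factors, fitted within each class. The Cldn5 values above and the marker sums below use unscaled totals. Col4a1 stood at 636 ± 27.3 CPM in arterial, 574 ± 16.3 in capillary and 332 ± 30.7 in venous endothelium, at 587 ± 115 in pericytes and at 464 ± 52.5 in smooth muscle. Col4a2 followed the same order in endothelium, with 369 ± 39.2, 331 ± 33.8 and 157 ± 12.4 CPM, and stood at 413 ± 71.3 in pericytes and 338 ± 39.8 in smooth muscle. Microglia, immune cells read here as a background level, gave 10.1 CPM for Col4a1 and 6.57 CPM for Col4a2. Against capillary cells in the same libraries, the venous level was lower by a log2 difference of −0.78 ± 0.14 (SE) for Col4a1 and −1.05 ± 0.13 for Col4a2. The pericyte differences of −0.12 ± 0.16 and 0.14 ± 0.17 did not pass the threshold (adjusted p under 0.05, edgeR's quasi-likelihood test over all 11866 genes, also for every call below unless another test is named). Neither did the smooth muscle differences of −0.07 ± 0.15 and 0.27 ± 0.14, though DESeq2 called Col4a2 there.

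**Figure D1:**
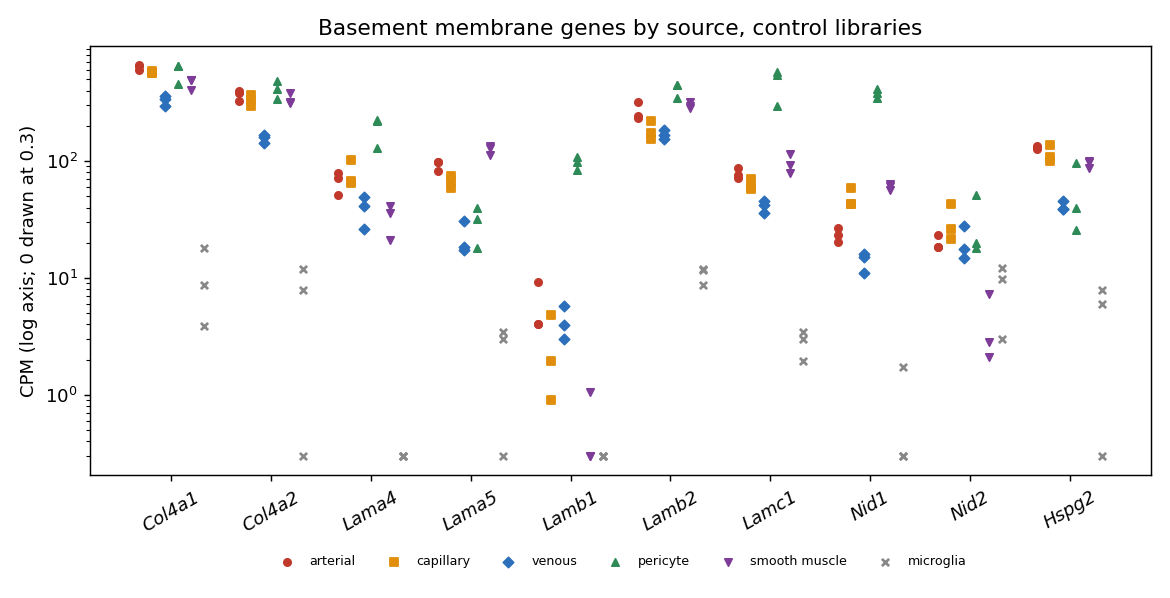
Level of each gene in arterial, capillary and venous endothelium, pericytes, smooth muscle and microglia of the 3 Control libraries (CPM, log axis; each point is 1 library). Among the classes drawn, Lamb1, Lamc1, Nid1 and Lama4 are highest in pericytes, Lama5 in smooth muscle, and microglia lie far below the vessel cells for most genes.

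The laminin chains divided the vessel cells more sharply. Among the cell types compared, Lamb1 had its highest level in pericytes, at 98.9, 83.6 and 108 CPM in the 3 Controls (from 10, 13 and 18 UMIs), against 1.94, 4.78 and 0.895 CPM in capillary cells. Every pericyte value lay far above every capillary value, and the log2 difference was 5.28 ± 0.46 (edgeR adjusted p = 3.22e-15). Within the capillary class, a small Apln-led subcluster described below had more in Controls 1 and 2 than pericytes did. It held 185 and 123 CPM of Lamb1 (22 and 24 UMIs) and 294 and 276 CPM of Lama4 (35 and 54 UMIs). Smooth muscle gave 0, 0 and 1 Lamb1 UMIs in the 3 Controls. A count of 0 there allows up to 4.24 and 7.33 CPM in Controls 1 and 2 (3 UMIs of the total, counting error only), so the smooth muscle level lay at or under the floor and no fold is given. Lamc1, the common gamma chain, stood at 297, 579 and 543 CPM in pericytes and at 58.1, 70.7 and 60.1 in capillary cells, again without overlap (2.78 ± 0.16, adjusted p = 1.52e-27).

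The alpha chains went in opposite directions in mural cells, the pericytes and smooth muscle cells that wrap the vessel. Lama4 stood at 129, 225 and 221 CPM in pericytes, 67.9, 102 and 65.1 in capillary cells and 32.8 ± 10.46 in smooth muscle, so that pericytes lay above capillary cells (1.14 ± 0.21, adjusted p = 4.06e-06) and smooth muscle below them (−1.02 ± 0.20). Lama5 was highest in smooth muscle, at 125 ± 10.9 CPM, above capillary cells at 67.2 ± 7.72 (1.16 ± 0.14), and was lower in pericytes at 29.9 ± 10.996 CPM (−1.40 ± 0.37, adjusted p = 0.00158). The pericyte value for Lama5 rests on 3 to 5 UMIs per Control. Of the UMIs of both alpha chains, Lama4 held 85.5% ± 8.20 in pericytes, 53.4% ± 4.05 in capillary cells and 20.4% ± 4.09 in smooth muscle (n = 3). Lamb2, the other beta chain, was above the capillary level in pericytes and in smooth muscle, by 1.00 ± 0.17 and 1.00 ± 0.14 on the log2 scale. Lamb1 held 19.2% ± 4.02 of the Lamb1 and Lamb2 UMIs in pericytes, 1.27% ± 0.785 in capillary cells and 0.11% ± 0.191 in smooth muscle. Since the capture of transcripts differs between genes, these shares compare cell types and not chains.

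Among the cell types compared, Nid1 was highest in pericytes, with 346, 412 and 382 CPM in the 3 Controls, against 43.2, 59.0 and 42.5 in capillary cells (2.83 ± 0.18, adjusted p = 1.02e-27). Among the endothelial zones it was lower in arterial (23.3 ± 3.28 CPM) and venous cells (14.0 ± 2.72) than in capillary cells. Outside these cell types, Control Nid1 was 288, 288 and 293 CPM in a Plvap-led endothelial subcluster and 510.4, 558 and 433 CPM in an unnamed Col3a1-led cluster, both described below. Nid2 was low in all of the cell types compared, at 30.3 ± 11.4 CPM in capillary cells and 29.7 ± 18.9 in pericytes (−0.16 ± 0.42, not past the threshold). In smooth muscle its 4.08 ± 2.83 CPM lay under the 8.30 CPM of microglia. Hspg2 was higher in arterial and capillary endothelium (131 ± 3.42 and 115 ± 19.4 CPM) than in pericytes (53.6 ± 37.0), a log2 difference of −1.19 ± 0.29 between pericytes and capillary cells (adjusted p = 0.000428), with 4 to 16 UMIs per library in pericytes.

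Read as counts, 7 of the 10 genes differed between pericytes and capillary cells (5 higher, 2 lower), where 30.2% of all genes did. Between venous and capillary cells 9 of 10 differed, 8 of them lower in venous cells, against a background of 32.1%, and the exception was Lamb1, higher by 1.02 ± 0.39 from 6 to 21 UMIs per venous sum (adjusted p = 0.0383). DESeq2 called 7, without Lamb1 and Nid2. Between arterial and capillary cells 5 of 10 differed, where 17.1% of all genes did: Lama5 (0.40 ± 0.12), Lamb1 (1.31 ± 0.36) and Lamb2 (0.47 ± 0.13) were higher in arteries, and Nid1 (−1.08 ± 0.14) and Nid2 (−0.62 ± 0.15) lower. That count fell to 3 by DESeq2 (Lamb2 higher, Nid1 and Nid2 lower), to 1 higher and 2 lower without Control 1, and to 0 higher and 3 lower without Control 3. Smooth muscle differed from capillary cells in 6 genes (background 55.6%), from arterial cells in 7 (53.1%) and from pericytes in 7 (21.4%), so only the last count lies far above its background. From pericytes, smooth muscle differed upward in Lama5 (2.56) and Hspg2 (1.19), and downward in Lama4 (−2.15), Lamb1 (from 1 UMI in smooth muscle), Lamc1 (−1.89), Nid1 (−2.21) and Nid2 (−2.61, from 2 to 3 UMIs). The median gene lay at −0.15 in the pericyte comparison, and the differences above are not corrected for it.

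Neighbouring cell types could lend RNA to these sums, so their markers were read in the same classes. The 8 endothelial markers summed to 172 to 436 CPM in Control pericytes and 227 to 580 CPM in iECKO pericytes, against 25522 to 39461 CPM for the 8 pericyte markers and 3179 to 6807 CPM for the 8 smooth muscle markers. Between 33.6% and 70.5% of pericyte barcodes per library had been removed beforehand because they also carried many markers of another class. The 8 endothelial markers were part of that filter, so their sum in the kept pericytes was limited by it. The 8 capillary markers were not part of it. They summed to 1086 to 1392 CPM in Control pericytes and 967 to 1235 CPM in iECKO pericytes. Capillary cells themselves had 8701 to 9858 CPM of the capillary markers in Controls and 4297 to 7594 CPM in iECKO libraries. These sums were lower in every iECKO library than in every Control. In capillary cells the pericyte markers summed to 32.7 to 56.4 CPM in Controls and 54.5 to 82.7 CPM in iECKO libraries, with all 8 detected, and the 7 astrocyte markers to 62.1 to 78.5 CPM and 103 to 201 CPM. The astrocyte sums were higher in every iECKO library than in every Control. The pericyte sums ranged higher in iECKO libraries but overlapped slightly with Controls. The part of any of these marker differences in the differences below was not tested. The pericyte markers in capillary cells thus stood far under their level in pericytes.

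Because endothelial cells outnumbered mural cells, they still supplied most transcripts of every gene. Endothelial cells were 93.6% to 97.0% of the vessel cells (endothelial, pericyte and smooth muscle) in the 6 libraries and held 96.3% to 97.98% of the Col4a1 UMIs, 89.9% to 94.4% of the Nid1 UMIs, 88.4% to 94.1% of the Lamc1 UMIs and 82.9% to 92.5% of the Lamb1 UMIs. Pericytes, 0.833% to 2.80% of these cells, held 7.23% to 16.2% of the Lamb1 UMIs, 2.63% to 6.31% of the Nid1 UMIs and 2.05% to 7.10% of the Lamc1 UMIs. Their share of Hspg2 UMIs was 0.12% to 0.47%, under their share of cells. Smooth muscle held 3.62% to 7.70% of the Lama5 UMIs. These shares follow the bead capture of endothelium and do not measure the proportions in brain.

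The second comparison asked how the genes differed between Cldn5 iECKO and Control vessels. In capillary cells, Col4a1, Col4a2, Lamb1, Lamc1, Nid1, Nid2 and Hspg2 were higher in iECKO libraries in a fit with the replicate number as a block, and Lama4, Lama5 and Lamb2 did not pass the test. Without a replicate block none of the 10 passed the threshold in edgeR (background 0.0244% of genes called), though 7 had an unadjusted p under 0.05 and DESeq2 called Col4a2, Lamc1, Nid1 and Nid2. In all comparisons the background shares of calls are those of edgeR's adjusted test. Shares of all genes with an unadjusted p under 0.05 or called by DESeq2 are not given. Those counts therefore stand without a background. Libraries with the same number deviated together in both genotypes, so the fit was also made with that number as a block. With the block, the 7 genes rose and none fell, where 3.31% of all genes were called higher. The median over the 10 genes was 0.97 without the block, against 0.00 over all genes tested.

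Col4a1 in capillary cells was 564, 593 and 565 CPM in Controls 1 to 3 and 1098, 1369 and 633 CPM in iECKO 1 to 3. The iECKO values all lay above the Controls, with the third only slightly so, and the log2 difference was 0.85 ± 0.31 (adjusted p = 0.401), or 0.78 ± 0.20 with the block (adjusted p = 0.0475). Col4a2 was 298, 331 and 365 CPM against 765, 887 and 441 CPM, also without overlap (1.02 ± 0.22 with the block, adjusted p = 0.026). Among the laminins, Lamc1 was 58.1, 70.7 and 60.1 CPM against 155, 194 and 84.3 CPM (1.12 ± 0.19 with the block, adjusted p = 0.00908). Lamb1, almost absent from Control capillary cells, was 1.94, 4.78 and 0.895 CPM (28, 25 and 13 UMIs) against 11.2, 57.1 and 3.66 CPM (179, 276 and 63 UMIs). Here the groups overlapped, since Control 2 was above iECKO 3, but the iECKO library was the higher one in each same-numbered pair (2.83 ± 0.26 with the block, adjusted p = 8.26e-05).

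Nid1, the linker between laminin and collagen, was 43.2, 59.0 and 42.5 CPM in Control capillary cells and 132, 200.1 and 79.8 CPM in iECKO cells. All 3 iECKO values lay above all Controls (1.51 ± 0.32 without the block, adjusted p = 0.145; 1.42 ± 0.16 with it, adjusted p = 0.000464). Nid2 was 26.2, 43.2 and 21.4 CPM against 135, 160.2 and 41.9 CPM, with iECKO 3 just under Control 2 (1.75 ± 0.27 with the block, adjusted p = 0.0272). Hspg2 was 107, 137 and 100.2 CPM against 219, 229 and 143 CPM (0.76 ± 0.14 with the block, adjusted p = 0.00892). Thus 5 of the 10 genes, Col4a1, Col4a2, Lamc1, Nid1 and Hspg2, had every iECKO library above every Control, which held for 7.82% of the genes tested. The unblocked differences of Lama4 (0.29 ± 0.31), Lama5 (0.21 ± 0.21) and Lamb2 (−0.22 ± 0.21) were near the size of their standard errors, and their libraries overlapped. With the block they were 0.24 ± 0.13 (adjusted p = 0.367), 0.20 ± 0.14 (adjusted p = 0.481) and −0.21 ± 0.13 (adjusted p = 0.460). In same-numbered pairs Lama4 was higher in 2 of 3 iECKO libraries, Lama5 higher in 3 of 3 and Lamb2 lower in 3 of 3.

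**Figure D2:**
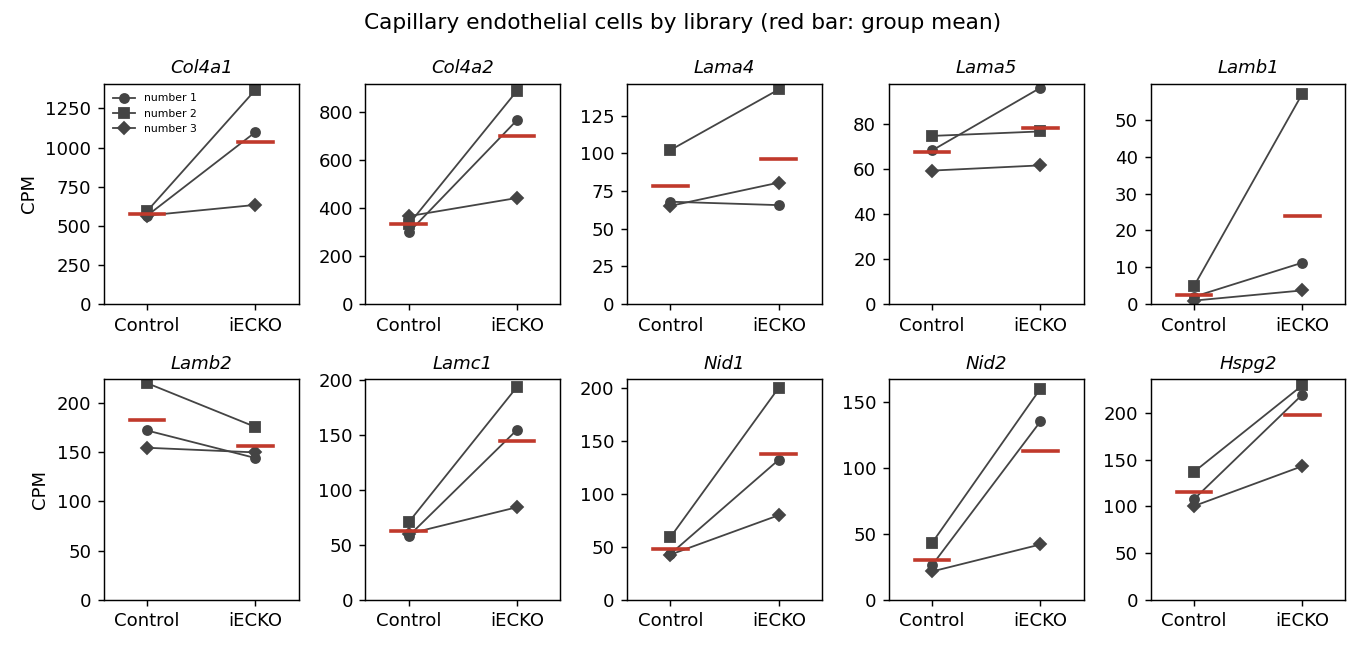
Level of each gene in capillary cells by library (CPM; a line joins a Control and an iECKO library of the same number, red bars are group means). Libraries iECKO 1 and iECKO 2 are far above the Controls for Col4a1, Col4a2, Lamb1, Lamc1, Nid1, Nid2 and Hspg2, and iECKO 3 lies closer to them.

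The library iECKO 3 decided these calls in the unblocked fit. Without it, Col4a2, Lamb1, Lamc1, Nid1 and Nid2 rose in capillary cells (background 2.65%). All endothelial cells together were compared as well. None of the 10 passed without the block (background 0.00755%), 5 had an unadjusted p under 0.05, and DESeq2 called Lamc1, Nid1 and Nid2. With the block Nid1 (1.00 ± 0.12, adjusted p = 0.0128) and Lamc1 (0.84 ± 0.13, adjusted p = 0.0356) rose, where 1.13% of all genes did. Without iECKO 3 the unblocked fit called Lamc1, Nid1 and Nid2 (background 0.846%). Over all endothelial cells Nid1 was 48.2, 45.4 and 42.9 CPM in Controls and 98.1, 111.6 and 67.6 CPM in iECKO libraries.

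The share of endothelial cells with at least 1 Nid1 UMI, after every cell was thinned to 2000 UMIs, was 7.59% ± 0.106 in Controls and 15.3% ± 1.53 in iECKO libraries (n = 3 each). The groups did not overlap, and the exact two-sided permutation test gave p = 0.1, the smallest that 3 against 3 libraries allow (0.375 after adjustment over 60 such tests). Before thinning the shares were 16.1% to 20.3% and 32.3% to 32.5%. For Col4a1 the thinned share was 64.9% ± 2.00 against 71.9% ± 3.49, with the same exact p of 0.1. Microglia thinned to the same depth had Nid1 in 0% of cells in every library, from 25 to 136 cells each, and Col4a1 in 1.72% of Control cells, and their median depth of 2706 to 5587 UMIs overlapped the 3652 to 5724 of endothelial cells. The part of Col4a1 in the UMIs of both collagen chains was 63.5% ± 2.43 in Control and 59.5% ± 0.994 in iECKO capillary cells (exact permutation p = 0.1, 0.4 after adjustment over 24 such tests). The ratio of iECKO to Control means was 1.80 for Col4a1 and 2.11 for Col4a2.

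Arterial and venous endothelium were compared in the same way. In arterial endothelium none of the 10 genes passed in edgeR without the block (background 0%; unadjusted p under 0.05 for Lamb1 and Nid1; none by DESeq2) or with it (background 0.412%). Col4a1 there was 657, 645 and 605 CPM in Controls and 569.8, 769.8 and 597 CPM in iECKO libraries, and the groups overlapped. In venous endothelium none passed without the block (background 0%; unadjusted p under 0.05 for Col4a2 and Nid1; none by DESeq2), and Col4a2 (0.60 ± 0.13, adjusted p = 0.0482) and Nid1 (1.09 ± 0.21, adjusted p = 0.0312) rose with it, where 0.451% of all genes did. Venous Nid1 was 10.9, 16.1 and 14.97 CPM against 38.9, 31.1 and 22.2 CPM, without overlap. The 8 fibroblast markers summed to 304 to 393 CPM in Control and 794 to 2115 CPM in iECKO venous cells, also without overlap, and to 115 to 155 CPM and 200.4 to 363 CPM in all endothelial cells. In capillary cells they overlapped, at 117 to 145 and 114 to 157 CPM. In venous cells 2 to 3 of the 8 markers had no UMI in a Control library, and 1 to 5 had none in an iECKO library. Apod, which is among these markers, was also a leading gene of an endothelial cluster led by Lrg1 and Ackr1. The part of the fibroblast markers in the venous and all-endothelial differences was not tested. Tested as an interaction, the arterial genotype difference was smaller than the capillary one for Col4a1 by −0.74 ± 0.20, but none of the 10 passed (adjusted p = 0.149 for Col4a1; background 0.234%; 7 with an unadjusted p under 0.05; none by DESeq2). Without iECKO 3 the interaction was called, with the arterial difference the smaller, for Col4a1, Col4a2, Lamc1, Nid2 and Hspg2 (background 2.68% called in that direction). For venous against capillary cells none passed either (background 0.709%; 4 with an unadjusted p under 0.05; none by DESeq2), and without iECKO 3 Col4a1, Lamc1, Nid2 and Hspg2 did, with the venous difference the smaller (background 2.33%).

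Pericytes, which the endothelial Cre does not target, were tested for the 8 genes with enough UMIs, leaving out Lama5 and Nid2. None passed in edgeR (background 0.0628%; unadjusted p under 0.05 for Col4a1 and Col4a2; none by DESeq2), and none of 9 with the block (background 0.133%). Pericyte Col4a1 was 455, 656 and 651 CPM in Controls and 1403, 1895 and 694 CPM in iECKO libraries, with every iECKO value above every Control and iECKO 3 again close to them (1.13 ± 0.29, adjusted p = 0.373; 1.03 ± 0.23 with the block, adjusted p = 0.0917). In iECKO 1 and iECKO 2 these levels lay above the 943.5 and 980.8 CPM of Col4a1 in all endothelial cells of the same libraries. The Apln-led endothelial subcluster described below had 1654 and 1845 CPM there. Pericytes lay below that level in iECKO 1 and near it in iECKO 2. The part of endothelial RNA in the pericyte levels was not tested. Without iECKO 3 pericyte Col4a1 was called. With the mixed barcodes kept its difference was 0.68 ± 0.32. Nid1 in pericytes was 346, 412 and 382 CPM against 407, 539 and 446 CPM (0.24 ± 0.24), with the groups overlapping. The difference between pericytes and endothelial cells in their genotype effect was 0.67 ± 0.21 for Col4a1 (adjusted p = 0.377), and none of the 10 passed (background 0.243%; 4 with an unadjusted p under 0.05; none by DESeq2).

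Smooth muscle cells were compared last. None of the 8 genes tested there passed without the block (background 0.0145%; 0 with an unadjusted p under 0.05; none by DESeq2) or with it (background 0.108%). Col4a1 was 403, 493 and 494 CPM in Controls and 489, 425 and 408 CPM in iECKO smooth muscle (−0.06 ± 0.21).

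**Figure D3:**
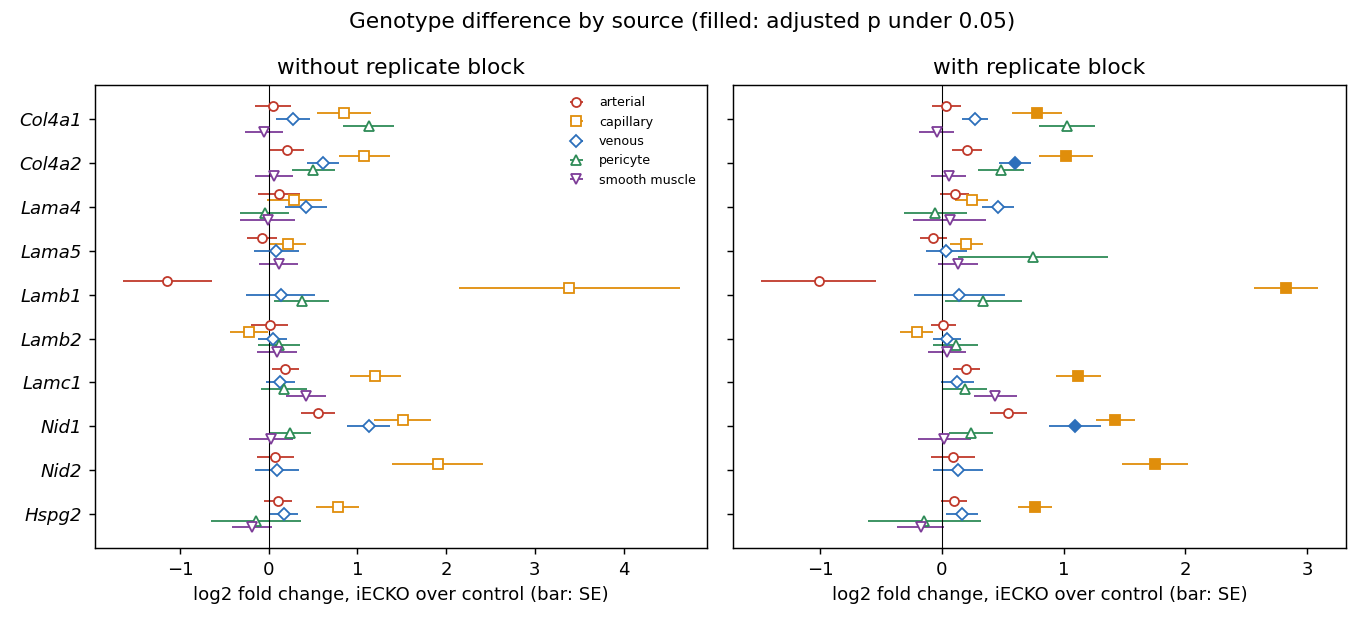
Log2 difference of iECKO against Control libraries with its standard error, by gene and cell class, without and with the replicate number as a block (filled points have an adjusted p under 0.05). With the block 7 genes pass in capillary cells, 2 in venous cells and none in arterial cells, pericytes or smooth muscle.

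The capillary difference lay largely in endothelial subclusters that held few Control cells. Of the capillary cells, 0.785%, 2.57% and 0.595% in Controls 1 to 3 and 68.9%, 54.8% and 6.88% in iECKO 1 to 3 were in subclusters with over 80% iECKO cells, led by Angpt2 and Apln or by Odc1 and Adm. The subcluster led by Angpt2 and Apln, genes known from sprouting endothelial tip cells, held 29.9%, 45.7% and 5.03% of iECKO capillary cells and 0.691%, 2.41% and 0.347% of Control ones. In that Apln-led subcluster Col4a1 ranged from 1499 to 2013 CPM over the 5 libraries with at least 20 such cells, Nid1 from 210 to 295, Nid2 from 138 to 258, Lamc1 from 174 to 321 and Lamb1 from 32.5 to 185 CPM. For Col4a1 the 2 Controls among them reached levels like those of iECKO cells, with 2013 and 1500.2 CPM. For Lamb1 these Controls lay above every iECKO library, at 185 and 123 CPM (22 and 24 UMIs) against 32.5, 108 and 49.7 CPM. The same held for Lama4, at 294 and 276 CPM (35 and 54 UMIs) against 106, 191 and 133 CPM. The other genes overlapped between genotypes.

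Most Lamb1 UMIs of capillary cells came from this subcluster. The Apln-led cells held 70.4%, 97.1% and 68.3% of the capillary Lamb1 UMIs in iECKO 1 to 3, and 78.6% and 96.0% in Controls 1 and 2. For Nid1 the share was 47.1%, 75.7% and 15.8% in the iECKO libraries, and for Lamb2 26.3%, 48.9% and 4.11%, close to these cells' share of capillary cells.

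Without the Apln-led subcluster the median capillary difference over the 10 genes went from 0.97 to 0.56, and without all subclusters with over 80% iECKO cells to 0.14 over the 9 genes still tested. In that last fit Col4a1 stood at 0.09, Col4a2 at 0.25, Lamc1 at 0.32, Nid1 at 0.44, Nid2 at 0.60 and Hspg2 at 0.14, none past the threshold, and with the block only Nid2 rose (0.62 ± 0.12, adjusted p = 0.00886; background 0.687%). These subclusters were set apart by their expression, so leaving them out also leaves out cells that may differ because of the genotype. Those with over 80% iECKO cells were also picked by their genotype make-up, so the smaller difference without them is a description and not a test. The 10 genes had no part in the clustering.

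**Figure D4:**
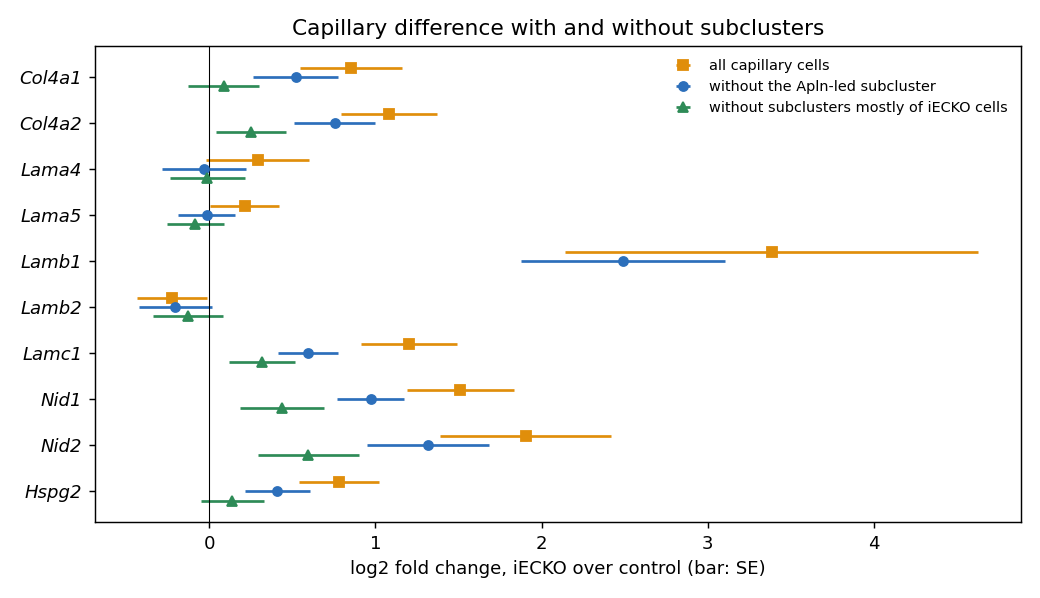
Log2 difference of iECKO against Control capillary cells with its standard error for each gene, in all capillary cells, without the Apln-led subcluster, and without all subclusters with over 80% iECKO cells. The median falls from 0.97 to 0.56. In the last fit, where Lamb1 was not tested, the median over the other genes is 0.14.

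A subcluster led by Plvap, the gene of a diaphragm protein of fenestrated endothelium, went the other way. It had 78 to 261 cells in each Control, 55 to 117 in each iECKO library, and was counted in no zone. Its Control cells carried more Col4a1 than those of any zone, at 1955, 2286 and 2118 CPM, and its iECKO cells 1449.8, 1725 and 1469 CPM, all lower. Hspg2 was 940.4, 886 and 902 CPM in Controls, far above the capillary level, and 765.5, 780.0 and 820.1 CPM in iECKO libraries. Every iECKO library lay below every Control for Col4a1, Col4a2, Lamb1, Nid1 and Hspg2, 5 of the 10 genes, which held for 4.65% of the genes in that subcluster, and for no gene of the 10 did every iECKO library lie above. Lamb1 rested there on 55, 68 and 43 UMIs in Controls and 13, 9 and 31 in iECKO libraries. Its groups were nearly touching, with Control 3 at 46.9 CPM and iECKO 3 at 45.7 CPM.

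**Figure D5:**
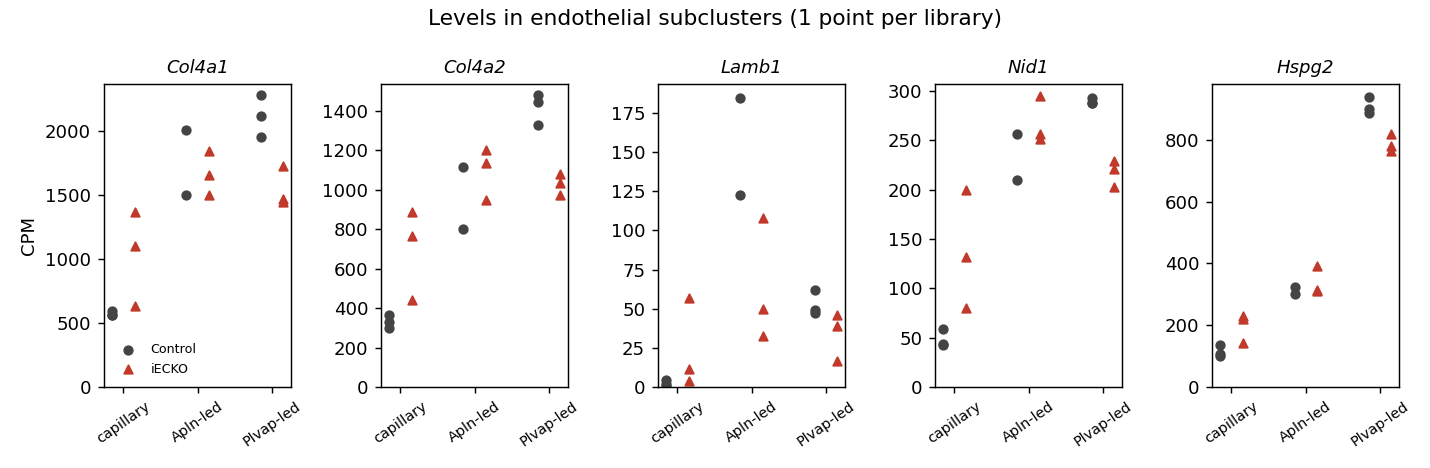
Level of Col4a1, Col4a2, Lamb1, Nid1 and Hspg2 in capillary cells, the Apln-led subcluster and the Plvap-led subcluster, by library (CPM). In capillary cells iECKO libraries lie above Controls, except that Lamb1 overlaps, and below them in the Plvap-led subcluster.

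The third comparison asked whether the genes differed between endothelial cells of the same iECKO libraries with and without detected Cldn5. Of endothelial cells with at least 2000 UMIs, 17.9%, 13.6% and 14.98% had no Cldn5 UMI in iECKO 1 to 3, against 3.22%, 4.06% and 2.17% in Controls. A missing UMI does not show a deleted allele, and in Controls 87.1% to 92.1% of these cells were in the Plvap-led subcluster, against 10.97% to 13.3% in iECKO libraries. Cldn5-undetected cells had more of 8 of the 10 genes than cells with at least 2 Cldn5 UMIs (background 6.3% higher): Hspg2 by 1.03 ± 0.06, Lamb1 by 0.87, and Col4a1, Col4a2, Lama5, Lamc1, Nid1 and Nid2 by 0.24 to 0.29. The count was 4 by DESeq2 and without iECKO 1, and 5 without iECKO 3. Without the Plvap-led subcluster 4 remained higher, Lama5 (0.39), Lamc1 (0.42), Nid2 (0.30) and Hspg2 (0.46), where 3.92% of all genes were, and Nid1 stood at −0.10. Within capillary cells Lamc1 (0.33 ± 0.10, adjusted p = 0.0333) and Hspg2 (0.42 ± 0.10, adjusted p = 0.00112) were higher (background 2.3%), none by DESeq2, none without iECKO 1, and 1 without iECKO 2 or iECKO 3. Within arterial cells none of 9 passed (background 0.429%; unadjusted p under 0.05 for Lamc1; none by DESeq2), and 1 did without iECKO 2.

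Cells that still had Cldn5 UMIs were then compared between genotypes. None of the 10 genes passed without the block (background 0.0384%; 7 with an unadjusted p under 0.05; DESeq2 called 4). With it Lamc1 (0.83 ± 0.14, adjusted p = 0.0401), Nid1 (1.33 ± 0.16, adjusted p = 0.0279) and Hspg2 (0.51 ± 0.09, adjusted p = 0.0305) rose, against 1.31% of all genes. Without the subclusters with over 80% iECKO cells none passed, with or without the block.

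Other matrix genes in capillary cells passed edgeR's test only with the replicate block, in both directions. In lists chosen around the pathway none of 55 tested genes passed in edgeR without the block, 11 had an unadjusted p under 0.05, and DESeq2 called 5. With it, where 3.31% of all genes were called higher, the collagen peroxidase gene Pxdn, whose product crosslinks type IV collagen, rose by 1.39 ± 0.19 (adjusted p = 0.00111), as the 1 of 20 tested genes of collagen folding, modification and crosslinking. Of 13 basement membrane receptors, the integrin beta chain Itgb3 rose (2.80 ± 0.54, adjusted p = 0.0214), from a mean of 0.71 CPM in Controls. Both counts of 1 lie near the background share. Of 18 other basement membrane and vessel matrix genes, Npnt (nephronectin, 1.37) and Mmrn2 (0.63) rose and 3 fell, among them Frem2 (−0.83) and Ltbp4 (−0.73). The share of all genes called lower is not given here, so the 3 falls stand without a background. None of the 5 other type IV collagen and laminin chains and not the 1 fibrillar collagen tested passed with the block, nor without it by edgeR.

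In Control pericytes, other genes of the same lists were set against capillary cells, where 30.2% of all genes differed. Of 8 other type IV collagen and laminin chains 6 were higher than in capillary cells, among them Lama2, at 425 ± 96.4 CPM against 0.17 ± 0.181, Lamc3, at 239 ± 23.4 against 6.94 ± 1.55, and Col4a5, at 68.0 ± 31.5 against 0.07 ± 0.069. Smooth muscle shared Col4a5, at 72.7 ± 9.78 CPM, but had only 4.34 ± 3.59 CPM of Lama2. Of 17 receptors 12 were higher and 2 lower in pericytes, with the laminin receptor chain Itga7 at 225 ± 93.2 CPM in pericytes against 0.16 ± 0.075 in capillary cells and Itga6, another laminin receptor chain, at 14.2 ± 14.97 against 654 ± 52.1. Of 20 other basement membrane and vessel matrix genes 2 were higher and 9 lower, as Egfl7 at 43.1 ± 14.2 against 1166 ± 259 CPM. All 5 fibrillar and microfibrillar collagens tested were higher, and 8 of 23 modification genes were higher and 1 lower, a count near the background share.

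Over the 36 sums of library and cell class, including microglia, the genes outside the 10 whose log2 level was most alike were found by Pearson's r among 6939 genes, as a description, since all sums of a class share cell type and depth. For Col4a1 these were Arhgap29 (r = 0.978), Utrn (0.971) and Gng11 (0.968), and Col4a2 itself reached 0.954. For Lama4 they were Itga1 (0.975), Pcdh1 (0.956) and Arhgap29 (0.953), for Lama5 Tinagl1 (0.916) and Pdlim7 (0.907), and for Nid1 Itga4 (0.967), Dlc1 (0.957) and Gjc1 (0.945).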

How the data were processed

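The deposited matrices hold raw UMI counts per gene and barcode for 6 libraries, which the authors made with Cell Ranger (version 6.1.1, per the file headers); the submitters' processing notes name mm10 and Seurat, and no Seurat output was used here. The remaining deposited columns are barcode and gene names. Depth was 15727366 to 49350802 UMIs per library.

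Barcodes with at least 1000 UMIs, 500 genes and at most 15% mitochondrial UMIs were kept. The barcodes with the highest doublet scores were removed, 0.8% per 1000 barcodes. Clustering (scanpy 1.11.5, leidenalg 0.10.2, 2000 variable genes, 40 components, 20 neighbours, resolution 1.0) left out Cldn5 and the 10 genes. Classes were named from marker lists, barcodes with at least 50% of another class's markers were removed, and endothelial cells were clustered again for zones. Zone thresholds were set after the data were seen.

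UMIs were summed per library and class (at least 20 cells) and tested with edgeR 4.0.16 (TMM, filterByExpr, robust quasi-likelihood test, Benjamini-Hochberg over all genes tested, threshold 0.05). DESeq2 1.42.0, other filters, RLE factors, left-out libraries and subclusters, other Cldn5 gates and a replicate block were alternatives. Same-numbered Control and iECKO endothelial sums deviated together over 13241 genes (r = 0.429, 0.521 and 0.484; different numbers −0.386 to −0.0923). The replicate number was therefore used as a block in an alternative fit, although the labels do not say what it marks. Deviations were taken from the mean of each group, so the values for different numbers depend on those for the same number. This likeness was seen in the same libraries to which the block was fitted. The scripts were tested on simulated data.

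Shares of cells with a UMI were taken after thinning to 2000 UMIs. Intervals and floors cover counting error only. Ratios and shares were compared by exact permutation over libraries. The 10 genes were named throughout. Of other lists, at most 4 genes past the threshold by smallest p were named, and for 4 of the genes the 3 most alike genes, of which 1 is not reported here. The genes and lists were chosen with earlier results of these data known.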

Additional observations from a re-analysis of the deposited data

Results flagged for a closer look

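For 6 of the 10 genes, every same-numbered pair of libraries had the iECKO library higher in capillary cells and lower in the Plvap-led subcluster, and this difference between the cell groups was not tested. The share of all genes that met both conditions is not given here, so this count stands without a background. The ratio of iECKO to Control mean CPM in the Plvap-led subcluster was 0.73 for Col4a1, against 1.80 in capillary cells. It was 0.727 against 2.11 for Col4a2, 0.64 against 9.44 for Lamb1 (from 9 to 31 UMIs per iECKO library in the Plvap-led subcluster) and 0.781 against 2.29 for Lamc1. For Nid1 it was 0.752 against 2.85 and for Hspg2 0.867 against 1.72.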

How the results depend on the processing

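Of 2234 single-gene values under alternatives in 19 comparisons, 1979 kept direction and side of the threshold, 57 lost and 74 gained a call (21 of these without iECKO 3, 18 without the filter on low counts, 15 with the replicate block, 12 by DESeq2) and 121 changed sign, of which in 100 the value as reported lay within its own standard error and neither value was called. DESeq2 called 3 genes in all endothelial and 4 in capillary cells, 4 among Cldn5-detected cells, 3 between arterial and capillary cells, and, for undetected cells, 4 in endothelium and 0 in capillaries. Without the filter the counts were 2 (all endothelial), 2 (capillary), 1 (venous), 1 (pericyte), 7 and 3 (arterial and venous interaction), 1 (undetected capillary) and 2 (detected). With the replicate block they were 2 (all endothelial), 7 (capillary; 1 without subclusters mostly of iECKO cells), 2 (venous) and 3 (detected); it changed no other call of the genotype comparisons. With a stricter filter on cells, undetected endothelial and capillary cells gave 5 and 1, and without the Plvap-led subcluster 4. Over left-out libraries the counts ranged from 0 to 3 (all endothelial, detected), 0 to 5 (capillary), 0 to 1 (pericytes, undetected capillary and arterial), 3 to 4 (arterial source), 0 to 5 and 0 to 4 (interactions) and 4 to 7 (undetected endothelial). For Lama5 in all endothelial cells the log2 difference ranged from −0.016 to 0.30, and for Lamb1 in undetected capillary cells from −0.11 to 0.69. The Nid1 share difference was 3.87 points at 1000 and 11.2 at 4000 UMIs (7.69 at 2000).

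Reversed values without the subclusters mostly of iECKO cells were, in all endothelial cells without and with the block, Col4a1 −0.0049 and −0.011, Lama5 −0.083 and −0.080, Lamb1 −0.45 and −0.42, and Hspg2 −0.034 and −0.037; in capillary cells Lama5 −0.085 and −0.071; in detected cells Lama5 −0.095 and −0.091, and Hspg2 −0.00086 and −0.014. Lamb1 was −0.27 (all endothelial) and Lama5 −0.016 (capillary) without the Apln-led subcluster. Lamb2 was −0.14 (pericyte interaction, mixed barcodes kept), Nid1 −0.10 (undetected, without the Plvap-led subcluster), and Lamb1 in undetected capillary cells −0.16 at the other gate. Of these, Nid1 had been called without the block and Hspg2 in detected cells with it. Pericytes are limited by 38 to 77 cells per library, and the stricter filter on cells was not run for smooth muscle comparisons or for the genotype comparisons of pericytes.

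The 100 other sign changes lay around 0. Without the filter on low counts Lamb2 was −0.019 in arterial, −0.041 in undetected endothelial and −0.012 in undetected arterial cells, and in undetected capillary cells Col4a1 was −0.025 and Col4a2 −0.048. With the stricter filter on cells Lamb2 was −0.020 (arterial) and −0.00099 (undetected endothelial), Nid2 0.17 (pericyte against capillary), Col4a2 −5.0e-06 (undetected capillary) and Col4a1 0.035 (undetected arterial). Lama4 in capillary cells was −0.030 without the Apln-led subcluster and −0.014 without the subclusters mostly of iECKO cells. At equal cell numbers Lama5 was −0.023 and Lamb1 −0.27 (venous), Lama4 0.13 (pericytes), and Col4a1 0.0017 and Nid1 −0.073 (smooth muscle). With mixed barcodes kept Lamb2 was −0.27 and Hspg2 0.20 in pericytes (−0.25 and 0.20 with the block), Col4a2 −0.093 (pericyte against capillary) and 0.055 (pericyte interaction), Col4a1 0.017 and Hspg2 0.038 (smooth muscle against capillary), and Lamb2 0.31 (smooth muscle against pericyte) and −0.025 (undetected endothelial). With doublets kept Lama4 was 0.020 (smooth muscle), Hspg2 0.020 (smooth muscle against capillary) and Lama5 0.050 (venous interaction). With the block Lama4 was 0.064 in smooth muscle. RLE factors gave Hspg2 0.017 (smooth muscle against capillary), and Col4a1 −0.013 (smooth muscle against pericyte) and 0.0038 (undetected arterial), where DESeq2 gave −0.018 and 0.0015. The other Cldn5 gate gave Col4a1 −0.0012 and Col4a2 −0.038 (undetected capillary) and Col4a1 0.067 (undetected arterial).

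Over left-out libraries Lamb2 ranged from −0.20 to 0.012 in all endothelial, −0.16 to 0.16 in arterial and −0.059 to 0.10 in venous cells, −0.027 to 0.19 in pericytes, −0.16 to 0.30 in smooth muscle and −0.21 to 0.0089 in detected cells. Lama4 ranged from −0.052 to 0.34 (arterial), −0.12 to 0.56 (capillary), −0.21 to 0.073 (pericytes) and −0.27 to 0.14 (smooth muscle). In arterial cells the ranges were −0.10 to 0.13 for Col4a1 and −0.068 to 0.21 for Nid2, and in venous cells −0.15 to 0.36 for Lama5, −0.093 to 0.43 for Lamb1 and −0.075 to 0.41 for Nid2. In pericytes they were −0.031 to 0.34 for Lamc1 and −0.52 to 0.64 for Hspg2, and in smooth muscle −0.16 to 0.0063 for Col4a1, −0.0026 to 0.15 for Col4a2 and −0.21 to 0.13 for Nid1. Against capillary cells, Col4a2 ranged from −0.060 to 0.20 in arterial cells and −0.0081 to 0.29 in pericytes, Lamb2 from −0.22 to 0.074 in venous cells and Hspg2 from −0.21 to 0.14 in smooth muscle, and Lamb2 from −0.15 to 0.11 between smooth muscle and pericytes. The interaction ranges were −0.18 to 0.0067 for Col4a2, −0.56 to 0.0079 for Lama4 and −0.81 to 0.48 for Hspg2 (pericytes), −0.36 to 0.090 for Lama4 (arterial) and −0.34 to 0.17 for Lama5 (venous). In undetected cells Lamb2 ranged from −0.054 to 0.061 (endothelial), −0.027 to 0.16 (capillary) and −0.055 to 0.17 (arterial), Col4a1 from −0.021 to 0.077 (capillary) and −0.068 to 0.058 (arterial), Col4a2 from −0.088 to 0.073 and Nid1 from −0.16 to 0.053 (capillary), and Lama5 from −0.13 to 0.26 and Nid2 from −0.037 to 0.73 (arterial). The cause of these changes was not tested.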

Other observations

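A cluster led by Col3a1, the gene of a fibrillar collagen, stayed without a name and entered no comparison. It held Col4a1 at 1172, 1710 and 1784 CPM in Controls 1 to 3 and 1974, 2301 and 1268 CPM in iECKO 1 to 3, with the groups overlapping. Nid1 was 510.4, 558 and 433 CPM against 319, 481 and 319 CPM, and Lamc1 522, 458 and 512 CPM against 656, 451 and 415 CPM. In every library its Lama5 level was at most 23.2 CPM.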
